A study of Homo sapiens with 39 samples.

Results

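The mitosis and spindle genes are a list of 41 genes for the machinery that carries a cell into mitosis and through chromosome segregation. Each was read from the probe set that names only that gene symbol and has the highest mean over all 39 arrays. 40 of the 41 were measured in this way, among 18132 genes in all. The exception was PTTG1, the securin that holds separase inactive, whose probe set also names another gene. The arrays come from 7 established human acute myeloid leukemia lines, Sig-M5, OCI-M1, OCI-AML3, KG-1a, NOMO-1, MV-4-11 and Kasumi-1. Each line was exposed for 24 h to tamibarotene (SY-1425), a synthetic retinoid that activates the retinoic acid receptor alpha, or to its vehicle, DMSO. Per the labels the drug was added at 100 nM, which gave a final 50 nM. Every line has 3 tamibarotene arrays; Sig-M5, KG-1a and Kasumi-1 have 2 vehicle arrays and the others 3. The labels name no genetic change in any line. Values are log2 array intensities, on which a difference of 1 is a doubling.

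Mitotic genes are switched on late in the cell cycle. FOXM1 and the MuvB complex drive many of them, and in resting cells the DREAM complex, which joins the MuvB core to RBL1 or RBL2, holds them off. Their products act in turn: cyclin B with CDK1 starts mitosis, kinases and motors build the spindle, the checkpoint delays anaphase until kinetochores are attached, and CDC20 with the anaphase-promoting complex (APC/C) ends it. In myeloid leukemia cells retinoids are known for inducing differentiation, which in many models comes with an exit from the cell cycle.

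Promoters of this class are known for the cell cycle genes homology region (CHR), a short element through which MuvB complexes bind, and for CCAAT boxes, which NF-Y binds. RefSeq promoter windows (GRCh38.p14, from 250 bases before to 50 bases after the annotated start) were matched for 34 of the 41 listed genes. AURKA, BIRC5, BUB3, FOXM1, TPX2, TTK and UBE2C were not matched. The 4 windows printed here are those of members that were called changed in at least 2 lines and that hold TTTGAA. Capitals mark TTTGAA as well as TTTAAA and CCAAT on either strand, so that TTCAAA and ATTGG are TTTGAA and CCAAT on the opposite strand. The CDC20 window is chr1:43358731-43359030 on the plus strand and that of PLK1 is chr16:23678639-23678938 on the plus strand. The MAD2L1 window is chr4:120066799-120067098 and that of SPC25 is chr2:168890381-168890680, both on the minus strand.
CDC20: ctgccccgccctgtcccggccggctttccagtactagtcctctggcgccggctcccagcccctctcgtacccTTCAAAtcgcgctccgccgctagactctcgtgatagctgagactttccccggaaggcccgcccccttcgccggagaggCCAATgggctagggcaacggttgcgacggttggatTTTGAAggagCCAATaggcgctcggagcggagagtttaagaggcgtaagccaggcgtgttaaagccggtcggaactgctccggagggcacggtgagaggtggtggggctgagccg
PLK1: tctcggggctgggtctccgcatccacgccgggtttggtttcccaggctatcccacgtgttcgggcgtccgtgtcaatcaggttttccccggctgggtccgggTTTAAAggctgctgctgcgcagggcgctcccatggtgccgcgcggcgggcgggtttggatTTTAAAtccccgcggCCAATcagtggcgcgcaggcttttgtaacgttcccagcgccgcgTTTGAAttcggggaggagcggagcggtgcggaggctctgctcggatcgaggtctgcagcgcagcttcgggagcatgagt
MAD2L1: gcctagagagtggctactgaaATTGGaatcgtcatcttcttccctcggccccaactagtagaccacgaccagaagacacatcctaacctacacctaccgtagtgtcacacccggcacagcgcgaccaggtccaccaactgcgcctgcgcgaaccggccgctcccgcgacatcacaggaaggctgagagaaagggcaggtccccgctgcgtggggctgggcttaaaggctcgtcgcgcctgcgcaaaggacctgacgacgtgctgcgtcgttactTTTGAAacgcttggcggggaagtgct
SPC25: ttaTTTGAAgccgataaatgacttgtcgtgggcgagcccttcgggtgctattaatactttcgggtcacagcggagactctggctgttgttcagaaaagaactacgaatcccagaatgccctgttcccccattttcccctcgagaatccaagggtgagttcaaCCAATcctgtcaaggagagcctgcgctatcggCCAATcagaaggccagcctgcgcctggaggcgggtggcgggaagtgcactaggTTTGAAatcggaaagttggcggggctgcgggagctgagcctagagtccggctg
In CDC20 a TTTGAA began 65 bases before the start, between CCAAT boxes at 100 and 55 bases before it. In PLK1 a TTTGAA began 29 bases before the start, with a CCAAT box at 73 and TTTAAA at 88 and 148. In SPC25 a TTTGAA began 3 bases before the start, with CCAAT boxes at 56 and 88. In MAD2L1 the TTTGAA lay downstream of the start, and its CCAAT box began 229 bases before it.

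Over the 34 windows, 23 held TTTGAA (67.6%), against 18.2% of 27305 genes with a window of the same length. TTTAAA, which reads the same on both strands, was in 14 (41.2%, against 14.5%), and CCAAT was in 28 (82.4%, against 39.7%). Either CHR form stood together with a CCAAT in 23 windows (67.6%, against 11.2%). The E2F motifs TTTGGCG and TTTCGCG were in 3 (8.82%, against 2.32%) and in 1 (2.94%, against 1.60%). Among members described below as changed, AURKB and SPC24 held a CCAAT without either CHR form, KIF2C held TTTAAA alone and CDCA5 held none of these letters. A match is a description of letters only.

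The array medians ran from 5.01 to 5.17. The 3' minus the 5' control value of beta-actin, which is larger in degraded RNA, served as a measure of integrity. The Sig-M5 vehicle arrays were at 0.81 and 1.89, against 0.31 to 0.34 in the tamibarotene arrays of that line. The Kasumi-1 vehicle arrays were at 1.18 and 0.30, against 0.20 to 0.22 under tamibarotene. Of the 7 markers of adherent stromal cells, FN1 reached 6.79 on an array (highest line mean 6.36, in OCI-AML3), PDGFRB 5.65, COL1A1 5.51 and the other 4 at most 4.37. The lymphocyte markers CD3E and MS4A1 reached 4.92 and 3.93. Line means ran from 5.12 to 9.42 for the leukocyte marker PTPRC, from 4.23 to 13.8 for the myeloid enzyme MPO and from 4.81 to 7.16 for the myeloid factor SPI1. The erythroid factors KLF1 (11.4) and GATA1 (9.92) had their highest line means in OCI-M1. The labels do not say that replicates are separate cultures, so p-values measure only the spread between these arrays, pooled over 14 groups.

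Tamibarotene left most of the mitotic genes without a called change. Over 280 tests of a member in a line there were 7 rises and 16 falls, and 15 of these 23 calls came from Sig-M5 alone. 24 members were called in no line, 10 in 1 line, 5 in 2 lines, and CDC20 in 3. Shares over all genes were not computed for these totals over lines, so the totals do not set the members apart from other genes. The shares for each line follow below. A call is an adjusted p under 0.05 in limma over all 18132 genes, and in all 23 called cases the tamibarotene and vehicle arrays did not overlap. These cases were picked by the test, so the separation is no support of its own. How often the arms separate over all genes was not computed. In bulk samples fewer dividing cells and less RNA per cell cannot be told apart.

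In Sig-M5, 4 members rose, where 8.50% of all genes did, and 11 fell, where 18.4% of all genes did. OCI-AML3 had 2 falls and no rise (all genes 6.36% down and 5.50% up), and MV-4-11 had 3 falls and no rise (3.40% down and 4.32% up). The only call in Kasumi-1 was a rise (0.480% up and 2.36% down), as it was in NOMO-1 (2.77% up and 0.711% down) and in KG-1a (1.21% up and 1.88% down). OCI-M1 had no call (0.700% up and 0.386% down) and no member at an unadjusted p under 0.05 in limma. Outside Sig-M5 the share of members called in either direction was thus at most 3 of 40.

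The middle of the list moved differently from line to line. In KG-1a, 33 of 40 members had a difference above 0, with a median of 0.20 against -0.02 over all genes. In MV-4-11 33 members and in NOMO-1 31 lay below 0, with medians of -0.13 and -0.17 against -0.01 and 0.02. In Sig-M5 30 lay below 0, and the median was -0.27 against -0.10 over all genes. The medians were -0.08 in OCI-AML3, -0.09 in OCI-M1 and 0.06 in Kasumi-1, against -0.03, -0.01 and -0.01. Many members move together from array to array, as described further on, so a shared sign over members is not a count of independent changes.

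**Figure D1:**
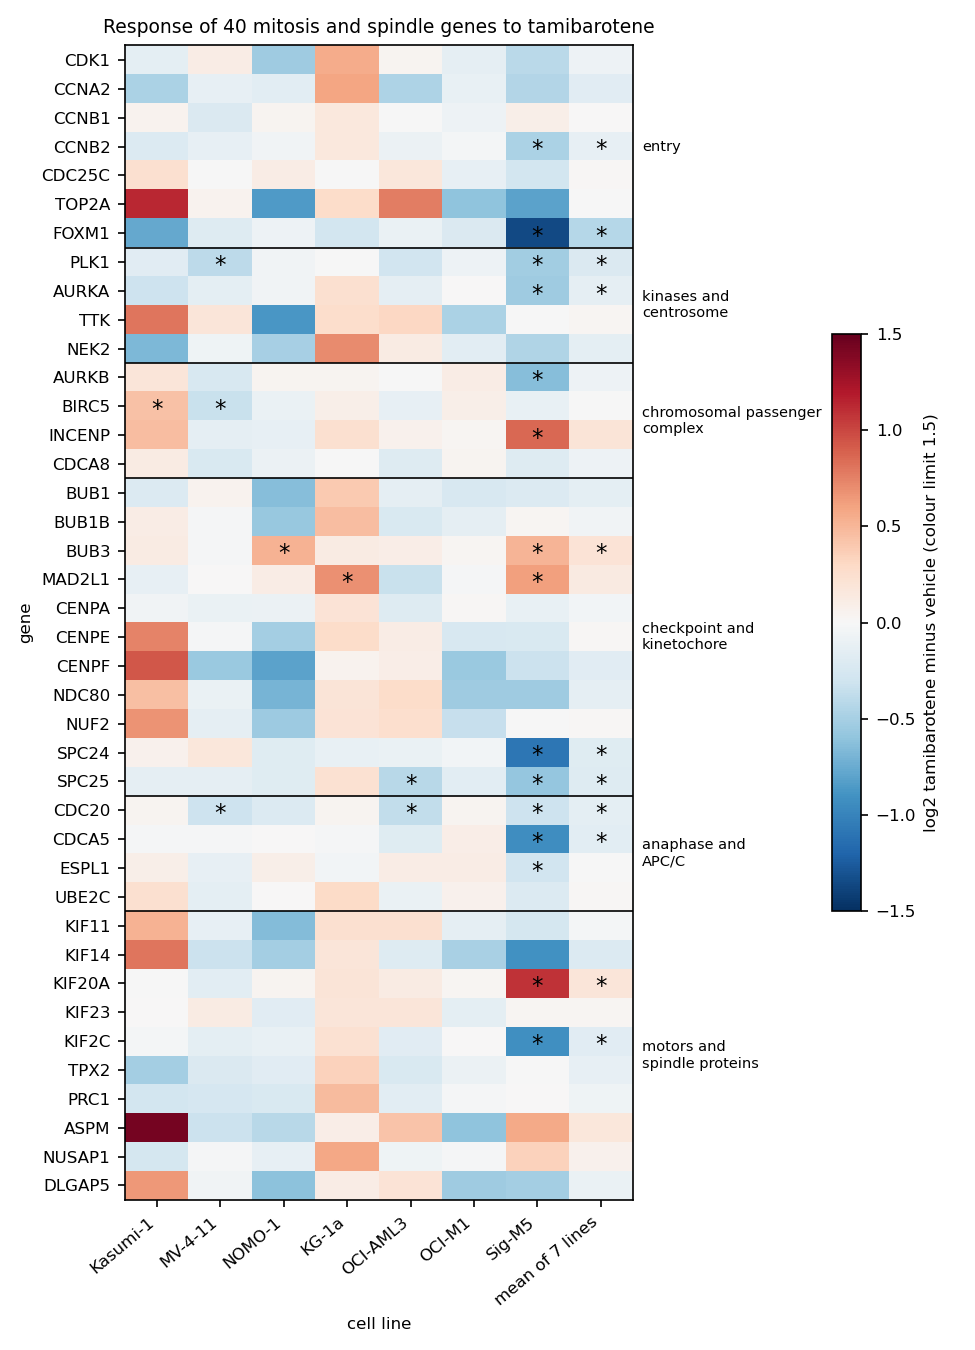
Change of each of the 40 measured members (rows, by role) in each of the 7 lines (columns) as tamibarotene minus vehicle on the log2 scale; colour is the difference, and an asterisk marks an adjusted p under 0.05 in limma. The Sig-M5 column holds 15 of the 23 asterisks and the OCI-M1 column none.

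Genes of mitotic entry were called in Sig-M5 only, where FOXM1 and CCNB2 fell and the other 5 of the group did not pass the test. FOXM1 is the transcription factor that drives many of the members. In Sig-M5 it was at 7.29, 7.14 and 7.57 in the tamibarotene arrays and at 8.60 and 8.78 in the vehicle arrays. All 3 treated arrays lay more than 1 unit below the lower vehicle array. FOXM1 fell by 1.36 ± 0.29 (SE; 2.56-fold lower, adjusted p = 0.000736, limma), and its difference lay below 0 in all 7 lines, down to -0.77 in Kasumi-1 and no further than -0.28 in the remaining 5. The other FOXM1 probe sets in Sig-M5 changed by -0.19 and -0.42. Averaging all FOXM1 probe sets, the difference was -0.65 (adjusted p = 0.0554), and the fit with the actin difference as a covariate gave -0.28 (adjusted p = 0.714); the part of RNA integrity in this fall was not tested beyond that fit.

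CCNB2, a cyclin B partner of CDK1, was at 9.96, 9.61 and 9.86 under tamibarotene and at 10.17 and 10.40 in vehicle in Sig-M5. The 2 sets of arrays lay close to each other without overlap. CCNB2 fell by 0.47 ± 0.10 (adjusted p = 0.000554, limma), a call that ended with the actin covariate (-0.32, adjusted p = 0.166) and with Sig-M5 fitted alone (adjusted p = 0.0544). The cyclins CCNA2 and CCNB1, the kinase CDK1, the phosphatase CDC25C and the topoisomerase TOP2A passed the test in no line. CCNA2 had differences of 0.59 ± 0.21 in KG-1a, -0.47 ± 0.21 in Kasumi-1, -0.47 ± 0.19 in OCI-AML3 and -0.44 ± 0.21 in Sig-M5, none of them called.

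Of the 4 mitotic kinases, PLK1 fell in 2 lines and AURKA in 1, while NEK2 and TTK passed the test in none. PLK1 drives centrosome maturation and spindle assembly. In MV-4-11 it was at 8.02, 8.04 and 8.13 under tamibarotene and at 8.46, 8.27 and 8.64 in vehicle. In Sig-M5 it was at 8.94, 8.79 and 9.01 under tamibarotene and at 9.64 and 9.24 in vehicle. Every treated array was below every vehicle array of its line, and the vehicle arrays were the more scattered. PLK1 fell by 0.40 ± 0.11 in MV-4-11 (adjusted p = 0.0192) and by 0.53 ± 0.12 in Sig-M5 (adjusted p = 0.00161, limma). Its difference was below 0 in all 7 lines, from -0.01 in KG-1a.

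Single arrays decided the PLK1 calls. The call in MV-4-11 ended with any of 4 arrays left out: tamibarotene replicate 1 (-0.38, at an adjusted p of 0.0823), tamibarotene replicate 2 (-0.39, at 0.0691), vehicle replicate 1 (-0.40, at 0.0588) and vehicle replicate 3 (-0.31, at 0.167). The call in Sig-M5 ended without vehicle replicate 1 (-0.33, adjusted p = 0.101). The other PLK1 probe sets changed by -0.49 and -0.59 in MV-4-11 and by -0.56 and 0.59 in Sig-M5, so that their average gave -0.17 (adjusted p = 0.478) in Sig-M5.

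AURKA, the kinase of the spindle poles, was at 10.43, 10.16 and 10.40 under tamibarotene and at 10.81 and 10.91 in vehicle in Sig-M5. It fell there by 0.53 ± 0.09 (adjusted p = 4.36e-05), and with the actin covariate the difference was -0.38 (adjusted p = 0.0513, limma). The checkpoint kinase TTK had the widest differences of the group, from -0.87 in NOMO-1 to 0.80 in Kasumi-1, with standard errors of 0.48 to 0.54, so none passed the test.

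The chromosomal passenger complex joins the kinase AURKB to INCENP, BIRC5 (survivin) and CDCA8 (borealin), and its members went different ways in the same line. In Sig-M5 AURKB was at 9.33, 9.20 and 9.45 under tamibarotene and at 10.04 and 9.89 in vehicle. It fell by 0.64 ± 0.09 (1.55-fold lower, adjusted p = 2.23e-06, limma). In the same arrays INCENP, the scaffold of the complex, was at 6.59, 7.54 and 7.09 under tamibarotene and at 6.51 and 5.92 in vehicle. The rise of INCENP was 0.86 ± 0.20 (adjusted p = 0.00173), and the call ended with vehicle replicate 2 left out (0.56, at 0.135) and with the actin covariate (0.44, at 0.400). Its other probe set changed by -0.47 there, and the mean of its probe sets gave 0.20 (adjusted p = 0.296). CDCA8 passed the test in no line.

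BIRC5 was the member with calls in opposite directions. In Kasumi-1 it was at 10.98, 11.08 and 11.11 under tamibarotene and at 10.41 and 10.82 in vehicle. In MV-4-11 it was at 10.57, 10.55 and 10.59 under tamibarotene and at 10.92, 10.88 and 10.90 in vehicle. The Kasumi-1 treated arrays all lay above the vehicle arrays, and the MV-4-11 treated arrays all lay below. BIRC5 rose by 0.44 ± 0.11 in Kasumi-1 (adjusted p = 0.0283) and fell by 0.33 ± 0.10 in MV-4-11 (adjusted p = 0.0313, limma). Tested against the average response elsewhere (the other 6 lines), Kasumi-1 stood 0.52 ± 0.12 above (adjusted p = 0.00658) and MV-4-11 0.38 ± 0.11 below (adjusted p = 0.0334).

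Both BIRC5 calls were near the threshold. That in Kasumi-1 ended with tamibarotene replicate 2 left out (0.43, at an adjusted p of 0.139), with tamibarotene replicate 3 left out (0.42, at 0.065) and with vehicle replicate 2 left out (0.23, at 0.536), the array with the actin difference of 1.18. That in MV-4-11 ended without any single 1 of its 6 arrays, with differences from -0.34 to -0.32 and adjusted p-values from 0.0614 to 0.101. The other BIRC5 probe sets ran from -0.10 to 0.77 in Kasumi-1 and from -0.36 to 0.22 in MV-4-11.

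**Figure D2:**
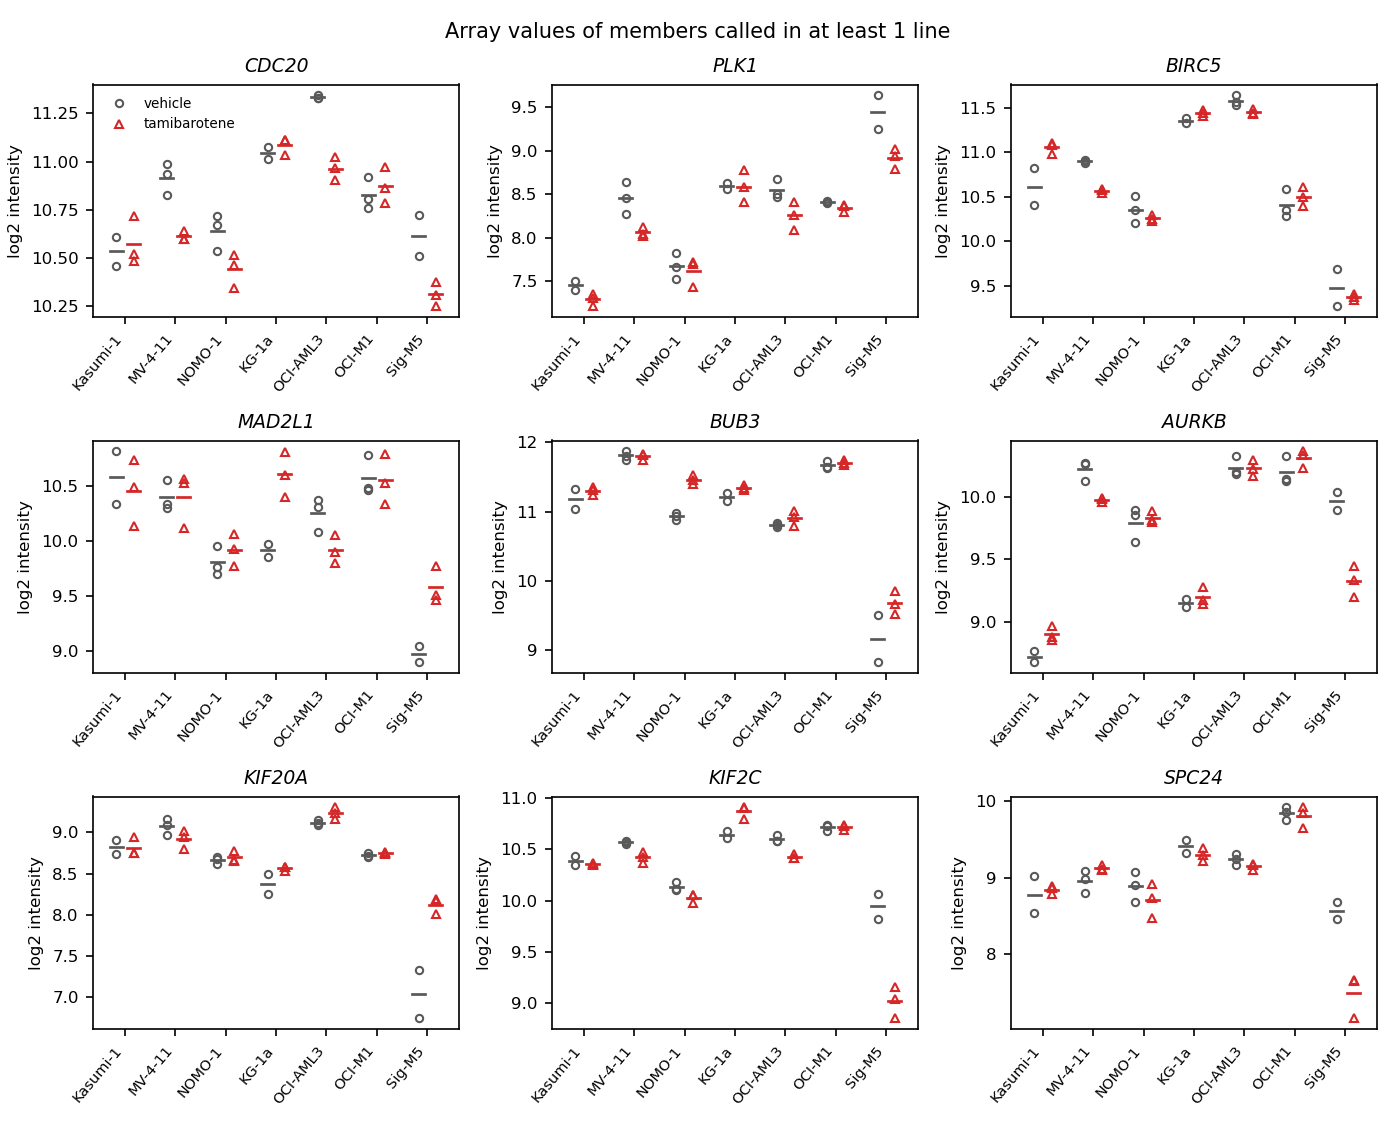
Log2 intensity in every array for members with a called change, by line and arm; each point is an array and each bar a group mean. CDC20 is lower under tamibarotene in MV-4-11, OCI-AML3 and Sig-M5. The treated and vehicle points do not overlap in any called case, and these cases were picked by the test.

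The spindle checkpoint genes BUB3 and MAD2L1 rose, each in Sig-M5 and in 1 further line. BUB3 carries the checkpoint kinases to kinetochores, and MAD2L1 is the subunit that captures CDC20. In NOMO-1 BUB3 was at 11.40, 11.53 and 11.45 under tamibarotene and at 10.88, 10.99 and 10.94 in vehicle. The arms were well apart, and BUB3 rose by 0.52 ± 0.11 (1.44-fold, adjusted p = 0.00244, limma), with its other probe sets at 0.58 and 0.47. In Sig-M5 it was at 9.52, 9.86 and 9.67 under tamibarotene and at 9.51 and 8.83 in vehicle. The highest vehicle array there nearly reached the lowest treated array. The rise of 0.51 ± 0.12 (adjusted p = 0.00145) became 0.18 (adjusted p = 0.348) without vehicle replicate 2, 0.85 without vehicle replicate 1 and 0.09 (adjusted p = 0.788) with the actin covariate.

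MAD2L1 in KG-1a was at 10.40, 10.81 and 10.60 under tamibarotene and at 9.97 and 9.85 in vehicle. In Sig-M5 it was at 9.51, 9.77 and 9.46 under tamibarotene and at 9.04 and 8.89 in vehicle. Treated arrays were the higher in both lines. MAD2L1 rose by 0.69 ± 0.17 in KG-1a (1.61-fold, adjusted p = 0.0182) and by 0.61 ± 0.17 in Sig-M5 (adjusted p = 0.00806, limma). In OCI-AML3 its difference of -0.34 did not pass the test, but it lay 0.55 ± 0.17 below the average response elsewhere (adjusted p = 0.0393).

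The MAD2L1 call in KG-1a ended with tamibarotene replicate 2 left out (0.59, at an adjusted p of 0.129), as it did for vehicle replicate 1 (0.75, at 0.101) and vehicle replicate 2 (0.63, at 0.270), and that in Sig-M5 without vehicle replicate 2 (0.54, adjusted p = 0.108). The Sig-M5 call also ended with the actin covariate (0.42, adjusted p = 0.354) and when all MAD2L1 probe sets were averaged (0.30, adjusted p = 0.0908). Other MAD2L1 probe sets changed by 0.63, 0.78 and -0.25 in KG-1a and by -0.07, 0.82 and -0.15 in Sig-M5.

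Of the 4 subunits of the NDC80 complex, which binds spindle microtubules at the kinetochore, SPC24 and SPC25 fell and NDC80 and NUF2 passed the test in no line. SPC24 in Sig-M5 was at 7.66, 7.16 and 7.65 under tamibarotene and at 8.45 and 8.69 in vehicle. It fell by 1.08 ± 0.14 (2.11-fold lower, adjusted p = 1.02e-06, limma), and the mean of its probe sets gave a fall of 0.38. SPC25 was at 7.97, 7.80 and 7.84 under tamibarotene and at 8.48 and 8.43 in vehicle in Sig-M5. In OCI-AML3 it was at 7.30, 7.39 and 7.54 under tamibarotene and at 7.80, 7.65 and 8.03 in vehicle. Treated arrays were the lower in both lines.

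SPC25 fell by 0.58 ± 0.13 in Sig-M5 (adjusted p = 0.000955) and by 0.42 ± 0.12 in OCI-AML3 (adjusted p = 0.0131, limma). The OCI-AML3 call ended with tamibarotene replicate 1 left out (-0.36, at an adjusted p of 0.0848) and with vehicle replicate 3 left out (-0.31, at 0.133), and the count of members called in that line was then 1. NDC80 and NUF2 had differences from -0.70 to 0.45 and from -0.55 to 0.68, with standard errors up to 0.53 and 0.39. The remaining kinetochore members, BUB1, BUB1B, CENPA, CENPE and CENPF, were called in no line.

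At anaphase CDC20 was the member called in the largest number of lines. It activates the APC/C and is the target of the checkpoint. In MV-4-11 it was at 10.60, 10.60 and 10.64 under tamibarotene and at 10.93, 10.83 and 10.98 in vehicle. In OCI-AML3 it was at 10.90, 11.02 and 10.96 under tamibarotene and at 11.33, 11.35 and 11.33 in vehicle. In Sig-M5 it was at 10.30, 10.25 and 10.37 under tamibarotene and at 10.72 and 10.51 in vehicle. The arms were apart in all 3 lines, most clearly in OCI-AML3, where the vehicle arrays were nearly equal.

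CDC20 fell by 0.31 ± 0.08 in MV-4-11 (adjusted p = 0.00925), by 0.37 ± 0.08 in OCI-AML3 (adjusted p = 0.000851) and by 0.31 ± 0.09 in Sig-M5 (adjusted p = 0.00851, limma). The MV-4-11 call ended without vehicle replicate 3 (-0.27, adjusted p = 0.0647), and the Sig-M5 call without vehicle replicate 1 (-0.20, adjusted p = 0.174) and with the actin covariate (-0.38, adjusted p = 0.0525). Its other probe sets changed by -0.40 and 0.03 in MV-4-11, by -0.33 and 0.03 in OCI-AML3 and by 0.70 and 0.22 in Sig-M5. Averaged over all CDC20 probe sets none of the 3 calls held, and the Sig-M5 difference turned to 0.20 (adjusted p = 0.228). In Kasumi-1, KG-1a and OCI-M1 the CDC20 difference was 0.04 each.

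CDCA5 (sororin), which protects cohesin, and ESPL1 (separase), which cleaves it, fell in Sig-M5, and the ubiquitin-conjugating enzyme UBE2C was called in no line. CDCA5 was at 9.0, 8.73 and 9.03 under tamibarotene and at 9.73 and 9.98 in vehicle. It fell by 0.93 ± 0.11 (1.91-fold lower, adjusted p = 1.85e-07, limma), by 0.43 with the mean of its probe sets and by 0.60 with the actin covariate. ESPL1 was at 8.59, 8.61 and 8.54 under tamibarotene and at 8.91 and 8.83 in vehicle. Its fall of 0.29 ± 0.11 (adjusted p = 0.0493) was lost under 34 of 48 alternative settings.

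Among the motors and spindle proteins, KIF20A rose and KIF2C fell in Sig-M5, and KIF11, KIF14, KIF23, TPX2, PRC1, NUSAP1, ASPM and DLGAP5 passed the test in no line. KIF20A, the kinesin that brings the passenger complex to the central spindle, was at 8.01, 8.16 and 8.19 under tamibarotene and at 7.33 and 6.75 in vehicle. It rose by 1.08 ± 0.11 (2.11-fold, adjusted p = 1.01e-08, limma). KIF2C, which depolymerises microtubules at centromeres, was at 9.16, 8.86 and 9.04 under tamibarotene and at 9.82 and 10.07 in vehicle. It fell by 0.92 ± 0.08 (1.90-fold lower, adjusted p = 1.84e-10), and its other probe set changed by -0.32. The differences of KIF11, the kinesin that pushes spindle poles apart, ran from -0.65 in NOMO-1 to 0.52 in Kasumi-1, and those of NUSAP1, a microtubule-binding protein of the spindle, from -0.27 in Kasumi-1 to 0.58 in KG-1a. The treated KIF20A arrays were tightly grouped and the vehicle arrays were not, whereas both arms of KIF2C were close.

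Of the 15 Sig-M5 calls, those of AURKB, SPC24, SPC25, CDCA5, KIF20A and KIF2C held in every alternative setting tried. The split of the 15 by direction rested on single vehicle arrays. Without vehicle replicate 2, the array with the actin difference of 1.89, 1 member rose, KIF20A, and 13 fell, while the share of all genes called became 4.43% up and 10.5% down. Without vehicle replicate 1, 5 rose and 8 fell (8.96% and 17.1% of all genes). With the actin covariate 1 rose and 10 fell (3.43% and 5.97%). Beyond these fits the part of RNA integrity in the Sig-M5 changes was not tested.

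Averaged over the 7 lines, 9 members fell, where 12.4% of all genes did, and 2 rose, where 6.71% did. Among the called members the largest mean falls were those of FOXM1 (0.43 ± 0.10, adjusted p = 0.00318), PLK1 (0.22 ± 0.04, adjusted p = 0.000473) and SPC25 (0.20 ± 0.05, adjusted p = 0.00184, limma). SPC24, KIF2C, CDCA5, CDC20, AURKA and CCNB2 fell by 0.12 to 0.18. BUB3 rose by 0.20 ± 0.04 (adjusted p = 0.00075) and KIF20A by 0.18 ± 0.04 (adjusted p = 0.000786). The median over members was -0.07 against -0.02 over all genes. The mean of KIF14, -0.21 ± 0.21, did not pass the test (adjusted p = 0.584).

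Most of these mean changes were no longer called when Kasumi-1 and Sig-M5 were both left out. For KIF2C, CDCA5, SPC24 and KIF20A the Sig-M5 differences were -0.92, -0.93, -1.08 and 1.08. Their Kasumi-1 differences were -0.03, -0.02, 0.07 and -0.01. Kasumi-1 lay further below 0 for FOXM1 (-0.77), AURKA (-0.31), CCNB2 (-0.21) and SPC25 (-0.14). Without both lines 3 members were called (all genes 13.6%): PLK1 (-0.16), CDC20 (-0.16) and BUB3 (0.15). FOXM1 was then at -0.17 (adjusted p = 0.284), SPC25 at -0.13 (0.0815), SPC24 at -0.05 (0.625), KIF2C at -0.04 (0.406), CCNB2 at -0.03 (0.709), CDCA5 at -0.02 (0.834), AURKA at -0.02 (0.842) and KIF20A at 0.04 (0.514). With the actin covariate BUB3 and KIF20A, both at 0.10, were no longer called, nor were FOXM1, AURKA, CCNB2, CDCA5 and SPC24. Averaged over all probe sets, CDC20 turned to 0.013 (adjusted p = 0.895), and SPC24 (-0.06, 0.477), CDCA5 (-0.03, 0.579) and PLK1 (-0.14, 0.0746) were not called in limma.

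The response differed between the lines for 14 of 40 members in the F test of limma, against 27.4% of all genes. These were CCNB2, AURKA, AURKB, BUB3, MAD2L1, CDC20, KIF20A, KIF2C, SPC24, SPC25, BIRC5, INCENP, CDCA5 and UBE2C. FOXM1 and PLK1, which lay below 0 in every line, were not among them (adjusted p = 0.0945 and 0.0929). When Kasumi-1 and Sig-M5 were left out, 7 members passed, against 15% of all genes.

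Relative to the average response elsewhere, Sig-M5 had 4 members above and 12 below (all genes 7.57% and 15.3%). CDC25C (-0.34 ± 0.13, adjusted p = 0.0486) and UBE2C (-0.26 ± 0.09, adjusted p = 0.0429, limma) joined the members below, although neither was called within the line. The Sig-M5 count of 16 became 9 without tamibarotene replicate 2, where 18.9% of all genes were called. It was also lower without vehicle replicate 2, which leaves 1 vehicle array, as was the share of all genes called. These 7 comparisons share arrays, since each line is also among the others' reference.

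In KG-1a 6 members stood above the average of the other 6 lines and none below (all genes 1.82% and 3.08%). They were CCNA2 (0.89 ± 0.23, adjusted p = 0.0176), MAD2L1 (0.65 ± 0.18, adjusted p = 0.035), PRC1 (0.62 ± 0.18, adjusted p = 0.0385), SPC25 (0.50 ± 0.14, adjusted p = 0.0295), KIF2C (0.46 ± 0.08, adjusted p = 0.000536) and AURKA (0.43 ± 0.10, adjusted p = 0.0057, limma). CCNA2, the S and G2 cyclin, was at 9.24, 9.20 and 9.02 under tamibarotene and at 8.63 and 8.49 in vehicle in KG-1a. PRC1, which bundles midzone microtubules, was at 9.57, 9.65 and 9.33 under tamibarotene and at 9.14 and 8.96 in vehicle. Treated arrays were above vehicle arrays for both.

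The KG-1a count of 6 became 2 without tamibarotene replicate 2, where 3.23% of all genes were called. It was also lower without either vehicle array, which leaves 1, as was the share of all genes called. The line's actin differences ran from 0.06 to 0.15 in both arms. Within KG-1a 10 members lay above 0 at an unadjusted p under 0.05 and none below, but only MAD2L1 kept an adjusted p under 0.05.

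In the same comparison Kasumi-1 had BIRC5 above (all genes 1.31% above and 4.05% below), MV-4-11 had KIF20A and BIRC5 below (3.04% and 1.75%), and OCI-AML3 had MAD2L1 below (4.15% and 3.67%). NOMO-1 (1.92% and 0.689%) and OCI-M1 (1.79% and 1.72%) had none in limma, with 1 and 4 members at an unadjusted p under 0.05, all of them above. The MV-4-11 count of 2 fell to 0 or 1 without any of its own arrays and was 4 without Sig-M5 vehicle replicate 1. The Kasumi-1 count of 1 became 9 without its tamibarotene replicate 1, 0 without its vehicle replicate 2, 3 without its vehicle replicate 3, and 2 without NOMO-1 vehicle replicate 3 or Sig-M5 vehicle replicate 2. The OCI-AML3 count of 1 became 0 without its tamibarotene replicate 1 or 2, its vehicle replicate 1 or 3, KG-1a vehicle replicate 2 or Sig-M5 vehicle replicate 2. It became 2 without NOMO-1 tamibarotene replicate 3, OCI-M1 tamibarotene replicate 3, OCI-M1 vehicle replicate 1 or Sig-M5 vehicle replicate 1. NOMO-1 had 1 member called without either Sig-M5 vehicle array.

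The members differed widely in how well their own replicates matched. The standard deviation within groups had a median of 0.163 over all genes. 17 of 40 members lay above the 90th percentile of all genes (0.271), led by ASPM at 0.75, TOP2A at 0.70, DLGAP5 at 0.70, KIF14 at 0.69 and TTK at 0.64. 16 members lay below the 25th percentile (0.134), among them KIF2C at 0.07, AURKB at 0.08 and CCNB1 at 0.09. The noisy members were dimmer, with a median level of 6.34 against 10.1 for the quiet ones. Of the 16 members called in any line, FOXM1 alone is among the noisy 17.

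The noisy members deviated together. Over the 39 arrays, the correlation of deviations from the group mean between any 2 of the 17 had a median of 0.81, with a range from -0.48 to 0.97, whereas among the quiet 16 it had a median of 0.24. The mean deviation of the 17 had a correlation of 0.95 with the first principal component of deviations over all genes, which held 37.6% of the variance within groups, and of 0.04 with the actin deviation. These correlations are given as a description, without a test. Whether all 39 arrays were normalized together is not given in the sources used here.

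**Figure D3:**
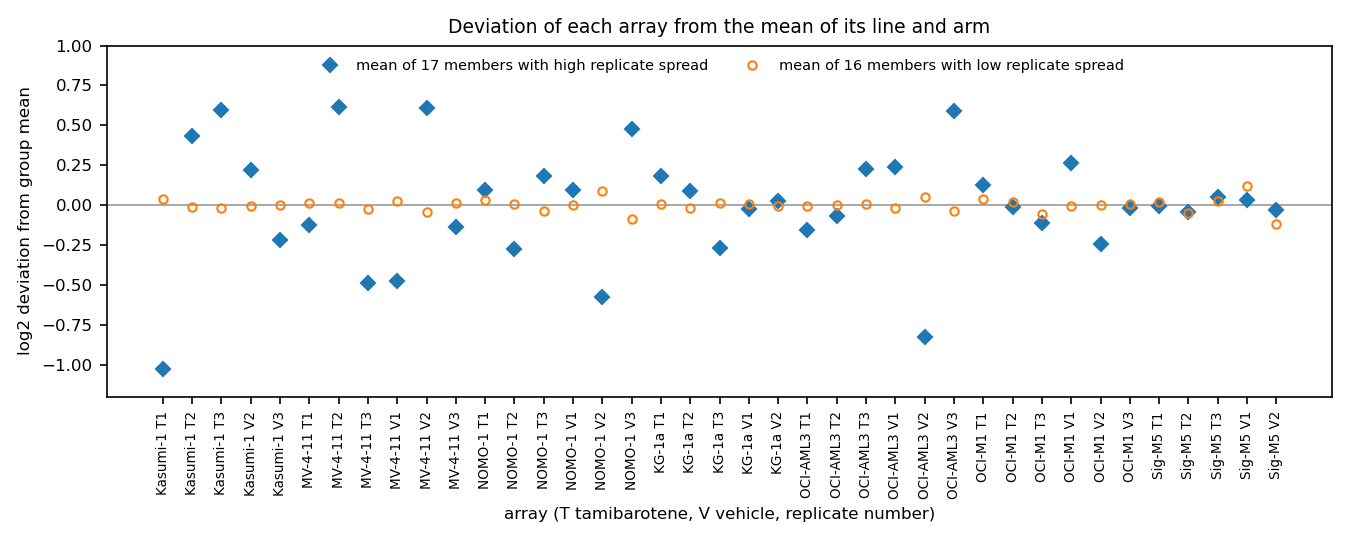
Mean deviation from the group mean in each of the 39 arrays, on the log2 scale, for the 17 members with the largest spread within groups and for the 16 with the smallest. The former run from -1.03 in Kasumi-1 tamibarotene replicate 1 to 0.61 in MV-4-11, and the latter stay near 0.

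The array farthest off was Kasumi-1 tamibarotene replicate 1, where the mean deviation of the 17 was -1.03. TOP2A, the topoisomerase that untangles sister chromatids, was at 6.54 in it and at 9.43 and 9.31 in the other treated arrays, against 7.69 and 6.89 in vehicle. The Kasumi-1 difference of TOP2A, 1.14 ± 0.59, did not pass the test. Without that array Kasumi-1 had 7 members called in place of 1 (all genes 2.02% up and 4.13% down). ASPM (2.36), TOP2A (2.08), TTK (1.67), CENPE (1.33) and BIRC5 (0.48) were then called higher, and TPX2 (-0.59) and AURKA (-0.37) lower. The Kasumi-1 count was 0 without tamibarotene replicate 2 or 3 or vehicle replicate 2, 3 without vehicle replicate 3 and 2 without Sig-M5 tamibarotene replicate 2.

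OCI-AML3 vehicle replicate 2 (-0.83) and NOMO-1 vehicle replicate 2 (-0.57) were low in the same way, and replicate 2 of both MV-4-11 arms was high (0.61 each). In MV-4-11 the count of called members was 1 without tamibarotene replicate 1 or 2 or vehicle replicate 1, and 0 without vehicle replicate 3. Of all genes 6.16% to 6.47% were called in these 4 settings. In KG-1a it was 0 without tamibarotene replicate 2 or either vehicle array, and 2 without NOMO-1 vehicle replicate 3 or either Sig-M5 vehicle array. The precision of a single difference follows: the 95% interval reached at least 0.143 and at most 1.15 to either side in lines with 3 arrays in each arm, and 0.160 to 1.29 where vehicle had 2. The widest of these intervals belong to noisy members, for which differences such as that of TOP2A in Kasumi-1 could not be told from 0 with these arrays.

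In vehicle the level of nearly every member differed between lines. 39 of 40 passed the F test of limma, against 78.6% of all genes, and the exception was KIF23 (adjusted p = 0.063). 21 members had their highest vehicle mean in Sig-M5 and 11 their lowest there. Among the former, Sig-M5 differed from the next line in limma for PLK1, AURKA, BUB1B, KIF11, KIF14, CENPE, CENPF and TOP2A only. Among the latter it differed for all but SPC24 and CDCA5. 19 members had their lowest mean in Kasumi-1, which differed from the next line for AURKB only. Shares of all genes with their highest or lowest mean in a line were not computed.

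Sig-M5 stood at the high extreme for 1 set of members and at the low extreme for another. Against the mean of the other 6 lines, 24 members were higher (all genes 28.9%) and 13 lower (28.1%). All 4 kinases, PLK1, AURKA, NEK2 and TTK, were higher, as were 5 of 7 entry genes, 7 of 11 checkpoint and kinetochore genes and 6 of 10 motor and spindle genes. Of the passenger complex, AURKB was higher and INCENP, BIRC5 and CDCA8 were lower. BUB3, CENPA, MAD2L1, SPC24 and KIF20A were lower too.

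TOP2A had the widest range of vehicle means, 4.97 units. In Sig-M5 it was at 12.18 and 12.33 in vehicle and at 11.47, 11.33 and 11.56 under tamibarotene. The other 6 lines had vehicle means between 7.29 in Kasumi-1 and 8.64 in NOMO-1, and no neighbours among them differed in limma. Sig-M5 stood 4.12 ± 0.49 above their mean in vehicle and 3.19 above it under tamibarotene. The other TOP2A probe sets in Sig-M5 vehicle averaged 9.09 and 8.38, also the highest of the 7 lines, and averaging all its probe sets put Sig-M5 2.39 above.

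CENPF, a kinetochore protein of G2 and mitosis, was at 8.79 and 8.84 in Sig-M5 vehicle arrays, 3.19 ± 0.41 above the other lines, whose means ran from 4.91 to 6.09. KIF14, a kinesin of cytokinesis, was at 7.50 and 8.32 there, 3.14 ± 0.48 above lines at 4.0 to 5.84. DLGAP5 (HURP), which stabilises kinetochore fibres, was at 8.31 and 8.13, 2.24 ± 0.49 above lines at 5.12 to 6.78. ASPM, a spindle pole protein, was at 8.50 and 7.70, 2.15 ± 0.52 above lines at 4.98 to 6.62. For all 4 the Sig-M5 vehicle arrays were above every vehicle array of the other lines. Sig-M5 and the next line differed in limma for CENPF and KIF14 and not for ASPM (adjusted p = 0.0501) and DLGAP5 (adjusted p = 0.0636), and below Sig-M5 no neighbours in order differed for any of the 4.

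**Figure D4:**
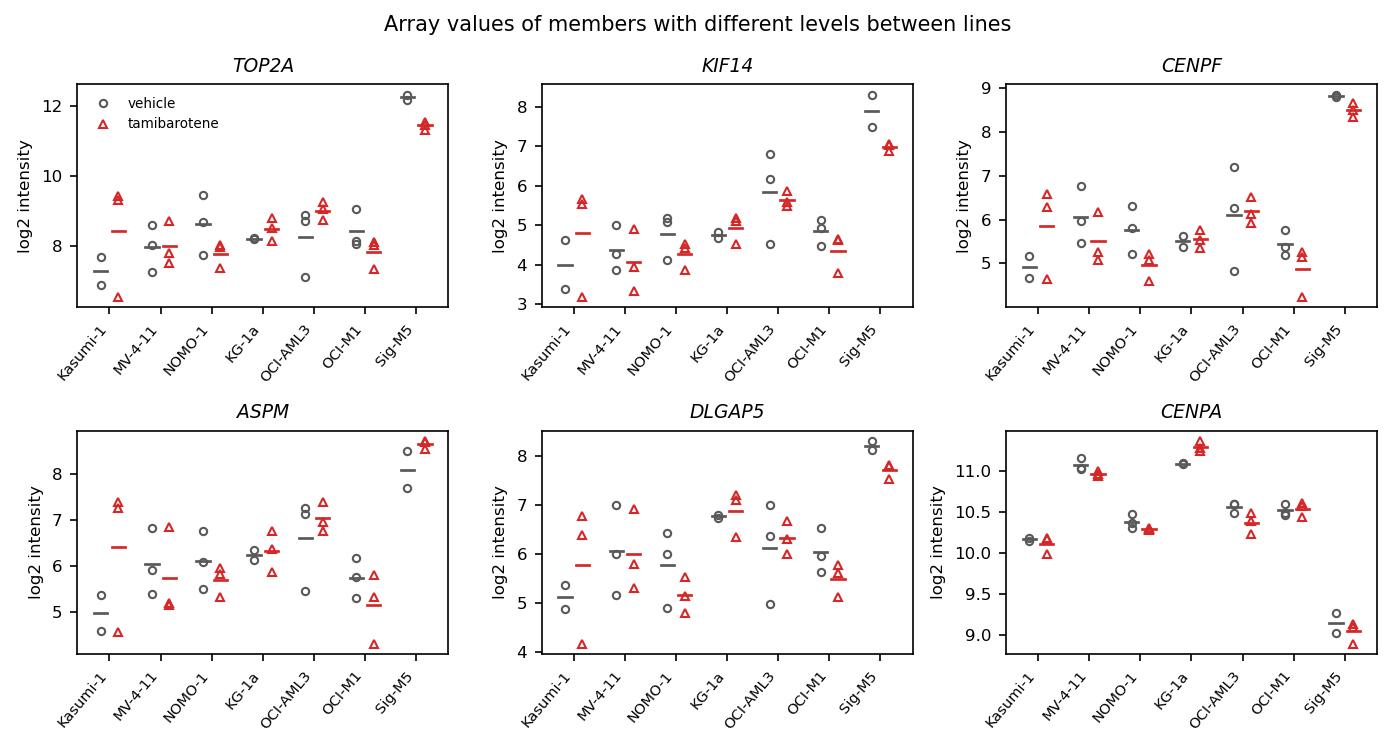
Log2 intensity in every array by line and arm for TOP2A, KIF14, CENPF, ASPM, DLGAP5 and CENPA; each point is an array and each bar a group mean. Sig-M5 is the highest line for the first 5 and the lowest for CENPA, in both arms.

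BUB3 had the opposite pattern. It was at 9.51 and 8.83 in Sig-M5 vehicle, against vehicle means of 10.81 in OCI-AML3, 10.94 in NOMO-1, 11.18 in Kasumi-1, 11.21 in KG-1a, 11.67 in OCI-M1 and 11.81 in MV-4-11. Sig-M5 stood 2.10 ± 0.10 below the mean of the rest, and neighbours differed between KG-1a and OCI-M1 and between Sig-M5 and OCI-AML3 only. CENPA, the histone H3 variant that marks centromeres, was at 9.27 and 9.03 in Sig-M5 vehicle and at 9.11, 8.90 and 9.13 under tamibarotene. Its vehicle means in the other lines ran from 10.17 in Kasumi-1 to 11.08 in KG-1a, and Sig-M5 lay 1.48 ± 0.07 below their mean. Other probe sets of CENPA averaged 7.18, 7.16 and 6.26 in Sig-M5 vehicle. KIF20A (-1.75), INCENP (-1.63), BIRC5 (-1.39) and MAD2L1 (-1.28) were also lower than in the other lines.

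The Sig-M5 order was nearly the same in the treated arrays, whose actin differences were 0.31 to 0.34. Among all genes 24.1% were higher and 34.8% lower there. 19 of the 24 members higher in vehicle were also higher under tamibarotene, 4 were then not called and 1, AURKB, was called lower, and all 13 of the lower members were lower again. With the actin covariate the Sig-M5 vehicle levels against the other 6 were 3.93 for TOP2A, 2.93 for CENPF and -1.64 for BUB3. KIF14 was at 2.20 and DLGAP5 at 2.26, while ASPM (2.19, adjusted p = 0.0572, limma) was no longer called. In that fit 36 members passed the F test between lines, against 74.5% of all genes. Beyond these fits the part of RNA integrity in the vehicle level of this line was not tested. Among the leukocyte and myeloid markers, PTPRC, SPI1 and MPO also had their highest line means in Sig-M5. LYZ was highest in NOMO-1, CD34 and ANPEP in KG-1a, and KIT and CSF3R in Kasumi-1. The part of cell type in the vehicle levels of Sig-M5 was not tested.

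**Figure D5:**
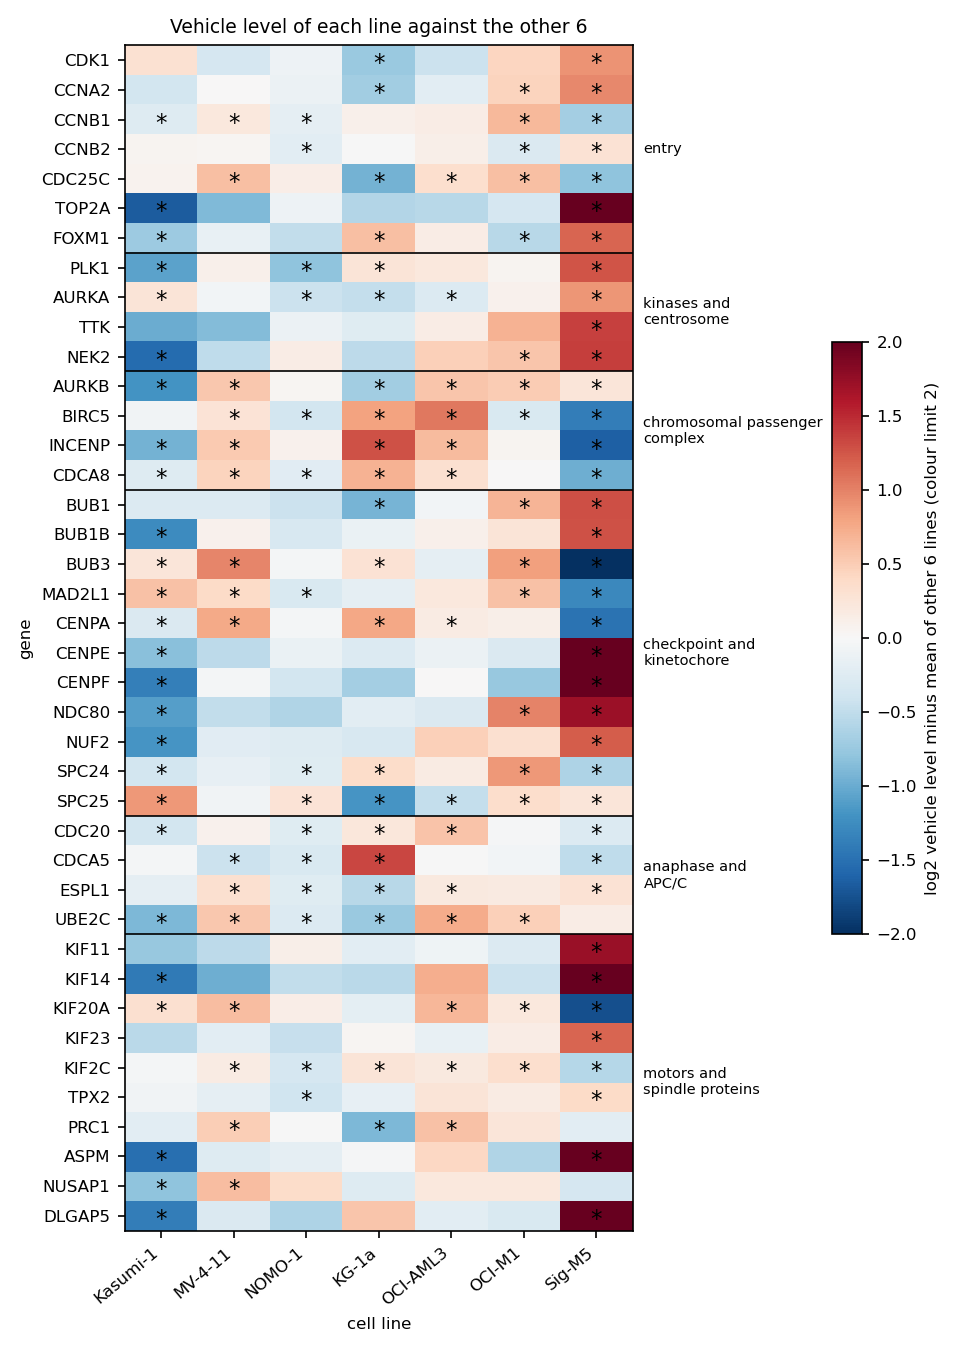
Vehicle level of each of the 40 measured members (rows, by role) in each line (columns) minus the mean of the other 6 lines, on the log2 scale; an asterisk marks an adjusted p under 0.05 in limma. Kasumi-1 has 21 members called lower and Sig-M5 24 called higher.

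Kasumi-1 had 5 members higher and 21 lower in vehicle (all genes 21.9% and 19.5%), with a median of -0.37 over members. NEK2 (-1.53), AURKB (-1.2) and PLK1 (-1.07) were among the lower, and SPC25 was among the higher. In the treated arrays (all genes 23.4% and 20.8%) 10 of the 21 were again lower, and 11 were not called. Without Kasumi-1 vehicle replicate 3, which leaves 1 vehicle array, the count of 26 calls was lower, as was the share of all genes called.

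KG-1a had 11 higher and 10 lower members (all genes 21.5% and 20.1%). CDCA5 (1.34 above) and INCENP (1.27 above) led the former, and SPC25 (-1.19) and CDC25C (-0.95) the latter. All 11 were higher under tamibarotene as well (all genes 23.1% and 21.3%), and 5 of the 10 lower ones were called lower again. The count of 21 calls was lower without vehicle replicate 2, which leaves 1 vehicle array, as was the share of all genes called. NOMO-1 had 1 member higher and 14 lower (all genes 19.3% and 27.5%). Its 15 calls became 9 without vehicle replicate 3, where 39.4% of all genes were called. Its treated arrays had 4 members higher and 21 lower (20.8% and 22.4%).

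MV-4-11 had 15 members higher and 1 lower (all genes 21.2% and 18.7%), OCI-AML3 had 12 and 2 (18.2% and 18.3%), and OCI-M1 had 14 and 3 (22.5% and 30.4%). OCI-M1, the line with the high erythroid factors, had the highest vehicle means of CCNB1, KIF2C and SPC24. It differed from the next line in limma for CCNB1 and SPC24 and not for KIF2C. OCI-AML3 had the highest means of 6 members, AURKB, CDC20, KIF20A, PRC1, BIRC5 and UBE2C, and differed from the next line for CDC20 only. In the treated arrays 11 members were higher and 3 lower in MV-4-11 (22.2% and 17.0%), 15 and 5 in OCI-AML3 (19.5% and 19.8%), and 19 and 6 in OCI-M1 (23.5% and 29.8%). All 40 members passed the F test between lines there, against 76.9% of all genes.

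The wider mitotic machinery was read from further lists, for which counts over all genes are those given above for each line. Of 15 APC/C subunits and partners, 4 fell and 1 rose in Sig-M5 and 2 fell in OCI-AML3. UBE2S, which extends ubiquitin chains on APC/C targets, fell by 0.58 in Sig-M5, by 0.42 in OCI-AML3 and by 0.33 in MV-4-11, the 3 lines in which CDC20 fell. ANAPC7 fell by 0.58 in Sig-M5 and by 0.46 in Kasumi-1. Of 19 condensin and cohesin genes, 2 fell in Sig-M5, 2 in OCI-AML3 and 1 in Kasumi-1. NCAPH2 (0.90) and NCAPG2 (0.99) were the falls in Sig-M5.

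Of 28 further kinetochore and checkpoint proteins, 8 fell and 1 rose in Sig-M5 and 4 fell in OCI-AML3. MAD1L1, the partner of MAD2L1 at kinetochores, fell by 1.24 in Sig-M5 and by 0.83 in OCI-AML3. MAD2L2 fell by 1.08 and by 0.40 in the same lines. CENPP fell by 0.78 in OCI-AML3 and CENPM by 0.78 in Sig-M5. Of 21 further motors, spindle and cytokinesis proteins, 5 fell in Sig-M5 and 1 rose in OCI-AML3, with TACC3 (0.79), RACGAP1 (0.73) and KIFC1 (0.64) among the falls. With the actin covariate the Sig-M5 falls were 3 of the APC/C list, 1 of the condensin and cohesin list, 6 of the further kinetochore list and 1 of the further motors. Without Sig-M5 vehicle replicate 2 they were 4, 1, 6 and 5. NCAPG2 was then at -0.92 (adjusted p = 0.056). The line calls in these 4 lists all came from Kasumi-1, MV-4-11, OCI-AML3 and Sig-M5 (adjusted p under 0.05 in limma).

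Cyclins, E2F factors and kinase inhibitors of G1 were called in 5 lines. Of 16 measured G1 regulators, 7 fell and 1 rose in Sig-M5, 4 fell in Kasumi-1, 2 fell and 1 rose in MV-4-11, and 1 fell and 2 rose in both KG-1a and OCI-AML3. The Sig-M5 falls included CCND3 (-1.32), E2F1 (-1.28), E2F2 (-1.18) and CCND2 (-1.14). CDKN2D, an inhibitor of CDK4 and CDK6, rose by 0.90 in KG-1a, by 0.76 in OCI-AML3, by 0.70 in MV-4-11 and by 0.41 in Sig-M5. CDKN1A (p21) rose by 1.19 in OCI-AML3 and fell by 0.52 in KG-1a, where CCND3 rose by 0.51. CCNE1 (-0.39) and E2F1 (-0.43) fell in MV-4-11, and CCND1 (-0.49) fell in OCI-AML3. In Kasumi-1 CDKN1C, CCND1, E2F3 and CDKN1B fell by 0.57 to 0.77. With the actin covariate 3 regulators fell and 1 rose in Sig-M5, and CCND2 was at -0.68 (adjusted p = 0.161, limma).

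Of 12 DREAM and MuvB genes, 5 rose and 4 fell in Sig-M5. The repressor RBL2 (1.12), the MuvB subunit LIN9 (1.20), TFDP1 (0.73), RBL1 (0.66) and RBBP4 rose there, and TFDP2 (-0.77), MYBL2 (-0.64), LIN37 (-0.60) and LIN52 (-0.49) fell. These calls rest on the 2 Sig-M5 vehicle arrays with raised actin differences. With the actin covariate 1 rose, TFDP1, and 4 fell, and RBL2 (1.03, adjusted p = 0.161) and LIN9 (0.93, adjusted p = 0.302, limma) did not pass the test. Without vehicle replicate 2 TFDP1 and RBL1 rose and 4 genes fell, and without vehicle replicate 1 5 rose and 2 fell. E2F5, a repressor-type E2F, fell by 0.88 in MV-4-11 and by 0.74 in OCI-AML3.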

How the data were processed

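RNA of 7 acute myeloid leukemia lines was hybridised to Affymetrix PrimeView arrays, 21 with tamibarotene and 18 with vehicle. The authors deposited log2 values made by RMA (affy), as the submitters' processing notes name it per the labels; its version is not given in the sources used here. The deposited log2 values ran from 1.68 to 14.43. Of 49395 probe sets, 44988 had 1 gene symbol, 1832 several, 2473 none and 102 were controls. A gene was read from its single-symbol probe set with the highest mean, which left 18132 genes. PTTG1 has no value here; its promoter window is among the 34.

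limma 3.58.1 in R 4.3.3 was fitted to 14 group means (lmFit and eBayes, 25 residual degrees of freedom). The contrasts took the change under tamibarotene in each line, its mean over 7 lines, each line against the mean of the other 6 in response and in level, and F tests between lines. p-values were adjusted over all genes by the Benjamini-Hochberg method, and intervals are at 95%. The number of arrays limits the precision. No 2 arrays of a group were duplicates, the highest correlation being 0.998. The scripts were tested on simulated data.

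Replicate numbers were taken to pair the arms only where every same-numbered pair of arrays had deviations correlated above 0.1, which held in OCI-M1 alone (0.118 to 0.371); with the number as a block its count stayed 0. In MV-4-11 the 3 correlations were 0.0995, 0.670 and 0.501, so that line fell short by 1 pair. In NOMO-1 they were 0.0105, 0.511 and 0.572, and every pair matched each other best. The tests reported above used no pairing in any line. With the block NOMO-1 had 4 members called in place of 1 (all genes 5.53%), and MV-4-11 still 3 (8.75%). The F test of response then called 27 members in place of 14 (35.5%).

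The members and lists were chosen with earlier results of these data known. All 41 genes were named. Array values were given for called members with the largest change in a role group and for those with the widest vehicle means, and for the further lists up to 4 called genes were named in most cases. Alternatives changed the scaling, the probe set rule, the filter, the variance model, the arrays used and the block; the further lists in Sig-M5 were also recomputed without each vehicle array and with the actin covariate, chosen after seeing the data. Figures were drawn with matplotlib 3.10.9.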

Additional observations from a re-analysis of the deposited data

Results flagged for a closer look

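In 14 members the response to tamibarotene differed between the 7 lines by the F test of limma, with adjusted p-values over all genes. The motors KIF2C (8.9e-08) and KIF20A (4.88e-06) had the smallest, followed by AURKB (6.26e-05), CDCA5 (6.8e-05), SPC24 (0.000286) and AURKA (0.000902). For these 6 the Sig-M5 difference was the farthest from 0 of the 7 lines. The value was 0.00531 for BIRC5, which rose in Kasumi-1 and fell in MV-4-11, 0.00602 for CDC20, 0.00651 for MAD2L1 and 0.00997 for UBE2C. BUB3 (0.0221), SPC25 (0.0234), CCNB2 (0.0278) and INCENP (0.0465) lay closer to the threshold. UBE2C was called in no single line.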

How the results depend on the processing

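Of 232 counts of called members recomputed under the alternatives, 170 stayed within 1.5 times the reported count and 62 did not. In what follows a line's name alone stands for its response count, with the reported count given by the ranges at the end. Percentages in brackets, where given, are the shares of all genes called in the same setting. With the replicate block, counts were 14 in Kasumi-1 (10.7%), 4 in NOMO-1 (5.53%), 3 in KG-1a (4.02%) and 4 in OCI-AML3 (13.4%). The F test of response then had 27 (35.5%). Against the other 6 lines there were 12 in Kasumi-1 (12%), 1 in MV-4-11 (5.33%) and 6 in NOMO-1 (7.38%). Kasumi-1 has no vehicle replicate 1, so its tamibarotene replicate 1 did not enter the blocked difference. Tamibarotene replicate 3 of KG-1a and of Sig-M5 had no partner either. Of the 18 same-numbered pairs, 12 matched each other best. In NOMO-1 every pair did. Quantile scaling gave 2 in KG-1a (2.93%), and 2 in Kasumi-1 against the other 6 (4.6%). The mean of all probe sets gave 0 in Kasumi-1 (1.7%), 3 in KG-1a (3.33%) and 7 in the mean response (18.5%). Against the other 6 it gave 1 in MV-4-11 (5.16%) and 1 in NOMO-1 (3.18%). It also turned CDC20 to 0.20 in Sig-M5 and to 0.013 in the mean response. Without the dimmest 25% of genes Kasumi-1 had 2 (4.34%), and Kasumi-1 (7.43%) and OCI-AML3 (10.7%) 2 each against the other 6. A trended, robust variance gave 2 in Kasumi-1 (3.16%) and 2 in KG-1a (3.23%). Against the other 6 it gave 1 in NOMO-1 (2.66%) and 2 in OCI-AML3 (8.12%). Array weights gave 0 in Kasumi-1 (0.0772%), 6 in MV-4-11 (17.9%), 11 in KG-1a (14.3%) and 10 in OCI-AML3 (31.1%). The F test of response then had 23 (40.8%), and the vehicle levels had 27 in MV-4-11 (51.9%) and 28 in OCI-AML3 (58.7%). Against the other 6 lines the weights gave 8 in MV-4-11 (11.3%), 1 in NOMO-1 (4.04%), 14 in KG-1a (15.5%) and 7 in OCI-AML3 (23.7%). They also gave 3 in OCI-M1 (7.1%) and 8 in Sig-M5 (14.6%) there. The actin covariate gave 0 in Kasumi-1 (0.154%), 2 in KG-1a (3.6%) and 6 in the mean response (12.7%). Against the other 6 lines it gave 8 in Sig-M5 (7.79%), 1 in NOMO-1 (1.92%) and 0 in MV-4-11 (4.67%). Leaving out vehicle replicate 2 of both Sig-M5 and Kasumi-1 gave 0 in Kasumi-1, 5 in MV-4-11, 2 in KG-1a, and 0 in Kasumi-1 and 1 in NOMO-1 against the others. Without Kasumi-1 and Sig-M5 there were 5 in MV-4-11 (9.44%), 3 in KG-1a (4.03%), 3 in the mean response (13.6%) and 7 in the F test of response (15%). Against the others there were then 1 in NOMO-1 (2.78%) and 2 in OCI-AML3 (9.11%). Each line fitted alone gave 0 in each of Kasumi-1 (0%), MV-4-11 (4.99%) and NOMO-1 (1.11%), 5 in KG-1a (4.38%) and 1 in OCI-AML3 (13.1%). A minimum change of 0.5 left 0 in Kasumi-1 (2.21%), 0 in MV-4-11 (5.3%) and 0 in OCI-AML3 (7%). Tamibarotene arrays in place of vehicle, an alternative chosen after seeing the data, gave 17 level calls in Kasumi-1 (44.2%) and 25 in NOMO-1 (43.2%). The cause of these moves was not tested.

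Leaving out 1 array at a time, counts ran from 0 to 7 in Kasumi-1 (reported 1), 0 to 4 in MV-4-11 (3), 1 to 1 in NOMO-1 (1), 0 to 2 in KG-1a (1), 1 to 2 in OCI-AML3 (2), 0 to 0 in OCI-M1 (0), 13 to 15 in Sig-M5 (15) and 11 to 13 in the mean response (11). They ran from 11 to 18 in the F test of response (14) and from 36 to 40 in that of vehicle levels (39). Vehicle level counts ran from 14 to 27 in Kasumi-1 (26), 15 to 20 in MV-4-11 (16), 9 to 17 in NOMO-1 (15), 13 to 21 in KG-1a (21), 12 to 16 in OCI-AML3 (14), 13 to 19 in OCI-M1 (17) and 31 to 38 in Sig-M5 (37). Counts of response against the other 6 ran from 0 to 9 in Kasumi-1 (1), 0 to 4 in MV-4-11 (2), 0 to 1 in NOMO-1 (0), 1 to 9 in KG-1a (6), 0 to 2 in OCI-AML3 (1), 0 to 0 in OCI-M1 (0) and 9 to 16 in Sig-M5 (16). A lone vehicle array is then assumed to vary like the other groups. Of 40 values followed for single members, 11 kept their direction and call under every alternative. These were the Sig-M5 responses of AURKB, CDCA5, KIF20A, KIF2C, SPC24 and SPC25 and the Sig-M5 vehicle levels of TOP2A, KIF14, CENPF, DLGAP5 and BUB3.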
